A study of Mus musculus with 6 samples.

Results

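Genes of the lipid-associated macrophage programme around Gpnmb and Trem2 were examined in alveolar macrophages (AMs), the resident macrophages of the lung airspaces, with and without the hyaluronan receptor CD44. The 10 genes are Trem2, Tyrobp, Gpnmb, Cd63, Cd9, Spp1, Lgals3, Fabp4, Fabp5 and Lpl, of 24341 gene identifiers in the deposited expression table. Each matched 1 identifier, and all 10 were above the limit set for testing (0.5 FPKM on average), as were 10800 genes in all. The list was chosen by name, from genes of this programme, with the genotype comparison of these same samples already known. The genotype differences of the 10 genes are therefore given as a description. How many of them passed a threshold is stated beside the share of all genes that did, and nothing is read from it.

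RNA was sequenced from cells of the bronchoalveolar lavage (BAL) of naive female C57BL/6 mice, 6 to 10 weeks old. There were 3 CD44+/+ samples and 3 CD44-/- samples, each of which pooled the cells of a few mice. The pools were small and did not all hold the same number of mice. The study lists the pool sizes in order but does not name the replicate of each. An SD here is thus a spread between unequal pools. The genotype is that of the animals and not of macrophages alone. BAL cells were treated with a lysis buffer for red blood cells and were not sorted, so a transcript of other lavage cells is measured along with that of AMs.

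In lipid-loaded tissues, macrophages take up lipid and debris and switch on a shared set of genes. TREM2 is a surface receptor that binds lipids and lipoproteins and signals through its adaptor DAP12, the product of Tyrobp. Around it stand proteins of the lysosome (GPNMB and CD63), secreted proteins (osteopontin from Spp1 and galectin-3 from Lgals3) and proteins that release or carry fatty acids (LPL, FABP4 and FABP5). AMs handle surfactant lipid all the time, and several of these genes are part of their normal state. CD44 is itself a receptor for osteopontin.

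Stretches before the transcription start are shown for the gene with the largest log2 difference over all samples (Gpnmb), the gene among the other 9 with the nearest profile to it (Cd63), the gene with the largest log2 difference in the other direction (Spp1), and the receptor gene Trem2. They are the 250 bases upstream of a RefSeq start on GRCm38.p6, all on the plus strand, at chr6:49036268-49036517 for Gpnmb, chr10:128909095-128909344 for Cd63, chr5:104434861-104435110 for Spp1 and chr17:48346151-48346400 for Trem2. The RefSeq start used for Cd63 lies within the gene as the deposited table places it (from chr10:128908919), so that stretch is inside the deposited locus. Capitals mark matches to the motifs described after the sequences.
Gpnmb: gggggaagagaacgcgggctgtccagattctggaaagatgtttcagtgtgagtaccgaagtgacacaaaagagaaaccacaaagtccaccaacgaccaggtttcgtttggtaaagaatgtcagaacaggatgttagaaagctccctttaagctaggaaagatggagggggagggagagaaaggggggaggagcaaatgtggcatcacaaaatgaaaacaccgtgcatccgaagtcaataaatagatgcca
Cd63: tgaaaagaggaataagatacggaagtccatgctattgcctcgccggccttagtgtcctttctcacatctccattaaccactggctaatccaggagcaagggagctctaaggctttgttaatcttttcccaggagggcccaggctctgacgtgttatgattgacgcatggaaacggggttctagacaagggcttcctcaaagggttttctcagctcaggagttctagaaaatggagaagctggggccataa
Spp1: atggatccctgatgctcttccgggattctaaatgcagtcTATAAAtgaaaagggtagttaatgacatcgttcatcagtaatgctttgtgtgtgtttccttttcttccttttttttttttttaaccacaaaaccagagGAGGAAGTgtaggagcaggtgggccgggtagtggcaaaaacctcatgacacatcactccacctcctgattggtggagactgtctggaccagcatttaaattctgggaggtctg
Trem2: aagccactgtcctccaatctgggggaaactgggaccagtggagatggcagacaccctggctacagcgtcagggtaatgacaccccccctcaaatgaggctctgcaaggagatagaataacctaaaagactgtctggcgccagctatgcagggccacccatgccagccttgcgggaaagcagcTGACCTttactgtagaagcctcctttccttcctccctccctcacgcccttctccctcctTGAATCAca

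Each motif was searched on both strands, in windows of 300 bases that add the first 50 transcribed bases to the 250 shown. Windows were on hand for 6 of the 10 genes (7 windows, since Spp1 has 2 starts), which are Gpnmb, Cd63, Spp1, Trem2, Cd9 and Lgals3. The AP-1 motif was searched as TGANTCA, with any base in the middle, and occurred in 7.81% of all 32851 windows. It was found in the Trem2 window as TGAATCA at -9 to -3 from the start. In the Gpnmb window it was TGACTCA at 9 to 15 after the start, outside the stretch shown. The Spp1 stretch held the PU.1 motif GAGGAAGT (3.2% of all windows) at -113 to -106, and TATAAA (13.6% of all windows) at -211 to -206. Trem2 held the nuclear receptor half-site AGGTCA (16.3% of all windows), as its complement, at -68 to -63. The C/EBP motif TTGCNNAA (10.8% of all windows) was found in the Trem2 window after the start and at the second Spp1 start. Neither CACGTG (7.15% of all windows) nor TCATGTG (3.77%), the letters that MiT/TFE factors bind, was found in the 7 windows. The windows of Cd9 and Lgals3 each held 18 CpG dinucleotides, against a median of 7 over all windows, while those of Gpnmb, Cd63, Trem2 and Spp1 held 9, 6, 5 and 3 (first Spp1 start).

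Transcript abundance is given in FPKM, in which fragment numbers are divided by transcript length and by the size of the library, so that levels can be compared between genes. The deposited values carry no read numbers, so the depth behind them is unknown and no counting interval is given. The targeted gene, Cd44 (chr2:102811142-102901665 on mm10), had 527 to 540.1 FPKM in the CD44+/+ samples, against 51.4 to 54.7 FPKM in the CD44-/- samples. Markers of AMs were high in every sample: the summed level of 11 marker genes lay between 15596 and 18061 FPKM in CD44+/+ and between 14766 and 18902 FPKM in CD44-/- samples. Chil3 made up most of that sum, with 10300 to 14200 FPKM. Of the 11 genes, 0 had an adjusted p under 0.05 in limma's comparison and 1 an unadjusted p under 0.05, Krt79, which was named after its values were seen and had 265, 269 and 314 FPKM in CD44+/+ against 224, 203 and 225 FPKM in CD44-/- samples (log2 difference -0.38, standard error 0.08, adjusted p = 0.185). Markers of other cells were lower, with summed levels of 99.3 to 120.02 FPKM (CD44+/+) and 103 to 112 FPKM (CD44-/-) for 10 monocyte and monocyte-derived macrophage genes, and of 652 to 1401 FPKM over all 6 samples for 6 airway secretory genes. The summed level of 7 alveolar type 2 cell genes was 36.3 to 47.5 FPKM in CD44+/+ and 44.1 to 111 FPKM in CD44-/- samples. For 5 neutrophil genes it was 50.8 to 90.2 FPKM over all samples, for 4 erythroid genes 2.12 to 56.5 FPKM, for 6 dendritic cell genes 3.06 to 9.78 FPKM, for 5 T and B cell genes at most 0.947 FPKM and for 4 eosinophil genes at most 0.0552 FPKM, with Prg2 and Epx listed at 0 in every sample. In the same comparison 0 genes of these lists for other cells had an adjusted p under 0.05. At an unadjusted p under 0.05, which 7.69% of all genes tested had, there were 3 of 8 tested monocyte genes, 2 of 4 tested type 2 cell genes and 1 of 5 tested neutrophil genes, all higher in CD44-/- samples. The median log2 difference was 0.30 for the monocyte genes, 1.03 for the type 2 cell genes and -0.08 for the neutrophil genes. It was -0.34 for the airway secretory genes, whose differences all lay between -0.39 and -0.07. For the tested erythroid genes it was 0.58, and for the tested dendritic cell genes 0.29. Of the type 2 cell genes, Abca3 had a difference of -0.04, and Sftpc had 22.8, 12.4 and 74.2 FPKM in the CD44-/- samples. Both were named after their values were seen. The part of these cells in the differences described next was not tested, and in bulk RNA fewer cells of a type and less RNA per cell cannot be told apart.

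The programme was strongly but unequally expressed in AMs of both genotypes. Averaged over the 6 samples, Cd9 had the 10th highest level of all genes with 3447 FPKM, followed among the 10 genes by Tyrobp with 1730 FPKM, Lpl with 1106 FPKM and Lgals3 with 956 FPKM. The next levels were those of Spp1 (416 FPKM), Fabp5 (355 FPKM), Fabp4 (221 FPKM), Gpnmb (183 FPKM) and Cd63 (158 FPKM). Trem2 was lowest with 48.8 FPKM, at rank 1736 of all genes. Ranges over the 6 samples overlapped between these neighbours in the order: Lpl and Lgals3, Spp1 and Fabp5, Fabp4 and Gpnmb, and Gpnmb and Cd63. In each of these 4 pairs the gene named first was higher in 5 of 6 samples, except that Spp1 was above Fabp5 in 4 of 6. The ranges of the other neighbours did not overlap.

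**Figure D1:**
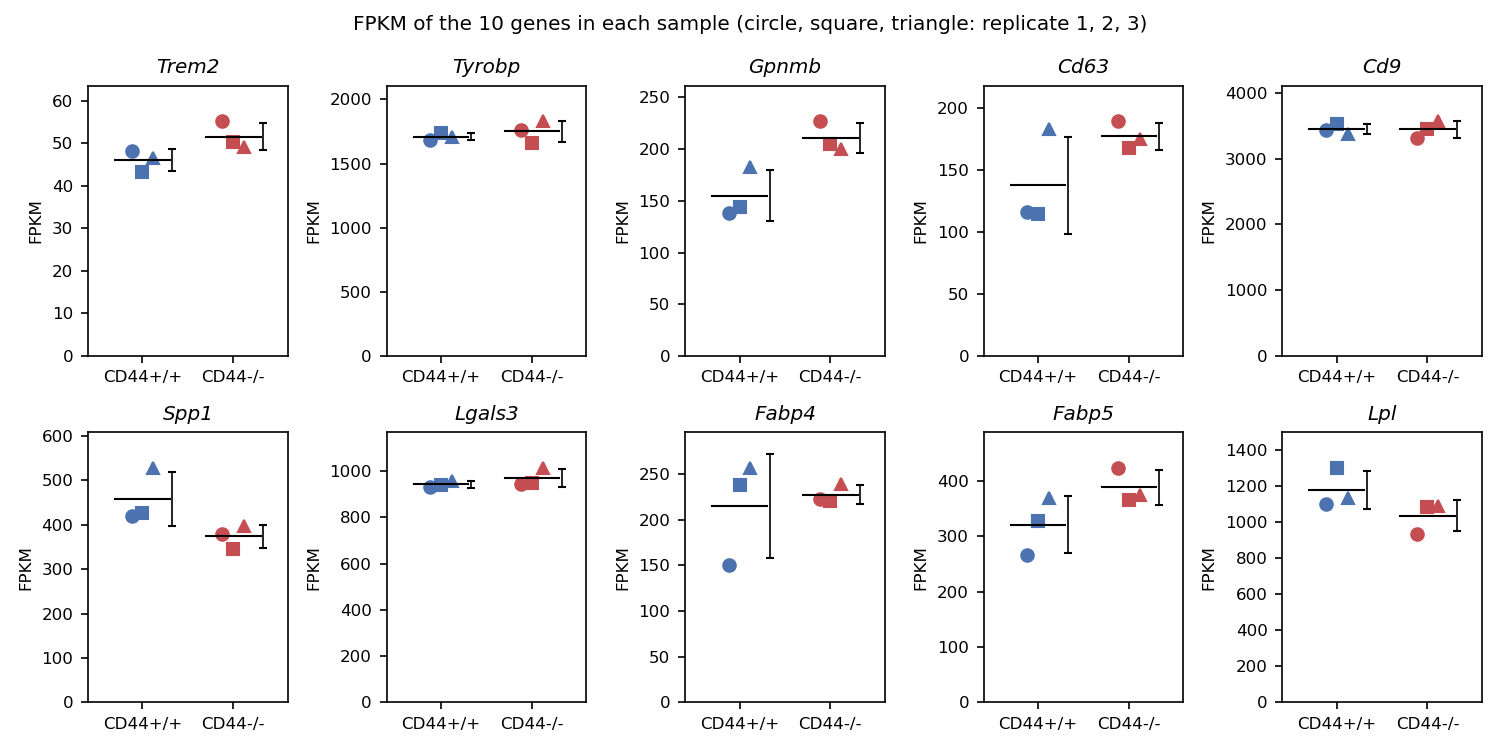
FPKM (linear axis from 0) of each of the 10 genes in the 3 CD44+/+ (blue) and 3 CD44-/- (red) samples; horizontal lines are group means, error bars are SD, and the marker shape gives the replicate number. Gpnmb and Trem2 have their 3 CD44-/- points above all CD44+/+ points, Spp1 and Lpl have them below, while Cd9, Tyrobp and Lgals3 lie close together.

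The receptor gene Trem2 was slightly higher in CD44-/- AMs, and the values of its adaptor gene overlapped. Trem2 (chr17:48346401-48352276) had 48.2, 43.3 and 46.6 FPKM in CD44+/+ replicates 1, 2 and 3, against 55.2, 50.4 and 49.1 FPKM in CD44-/- replicates 1, 2 and 3. Every CD44-/- sample was thus above every CD44+/+ sample, by 0.898 FPKM at the closest. The mean was 46.0 ± 2.54 FPKM (SD, n = 3) in CD44+/+ AMs, against 51.6 ± 3.20 FPKM (SD, n = 3) without CD44, a log2 difference (CD44-/- minus CD44+/+ throughout, on log2(FPKM + 0.1)) of 0.16 with a standard error of 0.06. Tyrobp (chr7:30413788-30417579) had 1680, 1740 and 1710 FPKM in the CD44+/+ samples, against 1760, 1660 and 1830 FPKM in the CD44-/- samples. The CD44-/- values of Tyrobp ranged from below the lowest to above the highest CD44+/+ value, and the log2 difference was 0.03 (standard error 0.06). Tyrobp transcript thus exceeded that of Trem2 by 31.9 to 40.2 times within each sample, and this ratio overlapped between genotypes.

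Gpnmb showed the largest log2 difference of the 10 genes with all samples included, while Cd63 had the larger one without CD44+/+ replicate 3 (0.62 against 0.58 for Gpnmb). GPNMB is a glycoprotein of late endosomes, lysosomes and the cell surface. Gpnmb (chr6:49036518-49058182) had 138, 144 and 183 FPKM in the CD44+/+ samples, against 227, 205 and 200 FPKM in the CD44-/- samples. The groups did not overlap, but CD44+/+ replicate 3 lay nearer to the CD44-/- samples than to the other CD44+/+ samples. CD44+/+ samples averaged 155 ± 24.4 FPKM (SD, n = 3), and CD44-/- samples 211 ± 14.4 FPKM (SD, n = 3), which is 136% of the CD44+/+ level, and the log2 difference was 0.45 (standard error 0.10).

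Cd63, which encodes a tetraspanin of late endosomes and lysosomes, was the nearest of the other 9 genes to Gpnmb in its variation over the 6 samples (root mean square difference of centred log2 values 0.107), with Fabp5 close behind (0.111). Cd63 (chr10:128908919-128912818) had 116, 115 and 183 FPKM in CD44+/+ replicates 1, 2 and 3 and 189.7, 168 and 175 FPKM in the CD44-/- samples. Here CD44+/+ replicate 3 fell within the CD44-/- range, and the groups overlapped. CD44+/+ samples averaged 138 ± 39.2 FPKM (SD, n = 3), and CD44-/- samples 178 ± 10.9 FPKM (SD, n = 3), with a log2 difference of 0.40 (standard error 0.16). The ratio of Gpnmb to Cd63 within a sample stayed between 0.998 and 1.25 and overlapped between genotypes. The other tetraspanin gene, Cd9 (chr6:125460266-125494755), had 3430, 3530 and 3380 FPKM in CD44+/+ and 3320, 3450 and 3570 FPKM in CD44-/- samples. Its mean was 3447 FPKM in both genotypes (SD 76.4 and 125, n = 3 each), and the log2 difference was -0.0004 (standard error 0.06).

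Of the genes for secreted proteins, Spp1 was lower in CD44-/- AMs and Lgals3 overlapped between genotypes. Spp1 (chr5:104435111-104441053) had 420.3, 427 and 528 FPKM in the CD44+/+ samples, against 378, 346 and 398 FPKM in the CD44-/- samples. Every CD44-/- sample was below every CD44+/+ sample, and CD44+/+ replicate 3 was again the highest of its group. CD44+/+ samples averaged 459 ± 60.6 FPKM (SD, n = 3), and CD44-/- samples 374 ± 26.0 FPKM (SD, n = 3), and the log2 difference was -0.29 (standard error 0.09), or -0.18 without CD44+/+ replicate 3. Lgals3 (chr14:47373860-47386167), for a lectin that binds galactosides on glycoproteins, ranged from 931 to 957 FPKM in CD44+/+ and from 945 to 1014 FPKM in CD44-/- samples, which overlap. Its log2 difference was 0.04 (standard error 0.05).

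The ratio of Spp1 to Gpnmb within a sample was picked from 7 such ratios after their values had been seen. That it did not overlap between genotypes follows from the values of both genes, Gpnmb being higher and Spp1 lower in every CD44-/- sample, and adds nothing to them. Its values were 3.05, 2.96 and 2.89 for CD44+/+ replicates 1, 2 and 3, against 1.67, 1.69 and 1.99 for the CD44-/- replicates. The means were 2.97 ± 0.0788 (SD, n = 3) and 1.78 ± 0.181 (SD, n = 3). The ratios of Spp1 to Lgals3 and of Gpnmb to Tyrobp did not overlap either, and the other 4 did. Since both transcripts were highest in CD44+/+ replicate 3 among the CD44+/+ samples, the ratio of that sample did not stand apart. A ratio within a sample does not depend on the scaling of that sample, and it shows unequal levels without saying which of the genes differed.

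**Figure D2:**
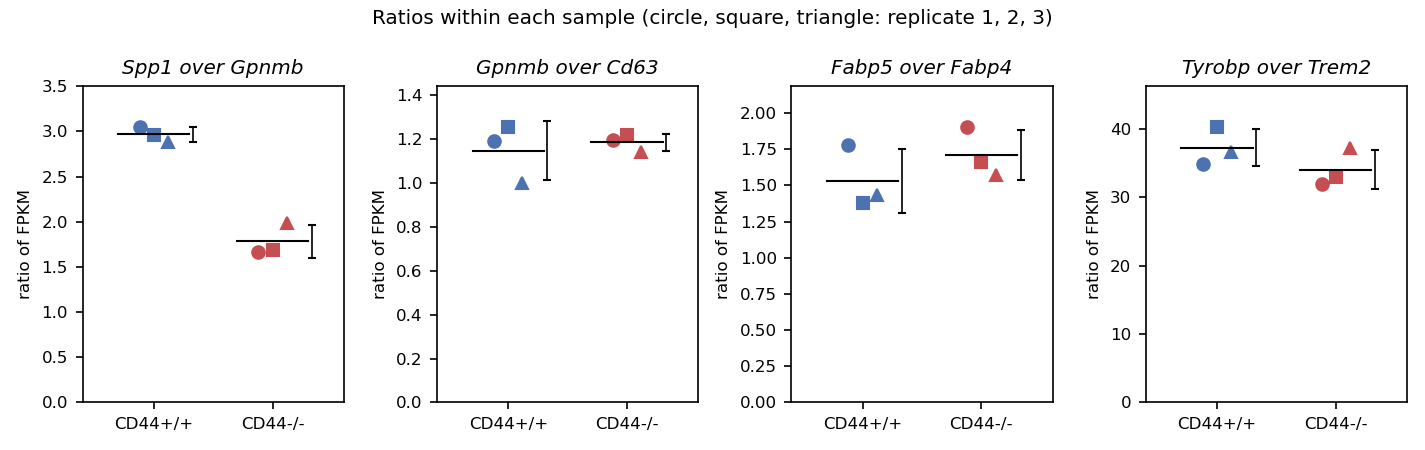
Ratios of FPKM within each sample (linear axis from 0) for 4 pairs of genes in CD44+/+ (blue) and CD44-/- (red) samples; lines are means and error bars SD. Spp1 over Gpnmb is 2.89 or more in the CD44+/+ samples and 1.99 or less in the CD44-/- samples, and the other 3 ratios overlap.

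The genes for fatty acid handling did not all differ in the same direction. Lpl (chr8:68880555-68906932), for the lipase that frees fatty acids from triglycerides of lipoproteins, had 1100, 1300 and 1130 FPKM in CD44+/+ and 934, 1080 and 1090 FPKM in CD44-/- samples. Every CD44-/- sample was below every CD44+/+ sample, though by only 10.0 FPKM at the closest, and the log2 difference was -0.19 (standard error 0.08), or -0.11 without CD44+/+ replicate 2 and likewise without CD44-/- replicate 1. After median-ratio scaling or quantile normalization the Lpl values of the genotypes overlapped. Fabp5 and Fabp4 encode cytosolic carriers of fatty acids and lie on chromosome 3. They are 187480 bases apart by their GENCODE positions, which differ somewhat from the deposited positions given next. Fabp5 (chr3:10012585-10016610) had 267, 327 and 369 FPKM in CD44+/+ and 424, 366 and 375 FPKM in CD44-/- samples, with overlap at CD44+/+ replicate 3 and a log2 difference of 0.28 (standard error 0.11), or 0.16 without CD44+/+ replicate 1. After quantile normalization the genotypes no longer overlapped for Fabp5. Fabp4 (chr3:10204343-10208576) had 150, 238 and 257 FPKM in CD44+/+ and 223, 220.0 and 239 FPKM in CD44-/- samples. Its CD44+/+ values lay on both sides of the CD44-/- values, with replicate 1 far below the other 5 samples, and the log2 difference was 0.12 (standard error 0.17), or -0.12 without that replicate. Fabp5 exceeded Fabp4 in all 6 samples, by 1.38 to 1.90 times.

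**Figure D3:**
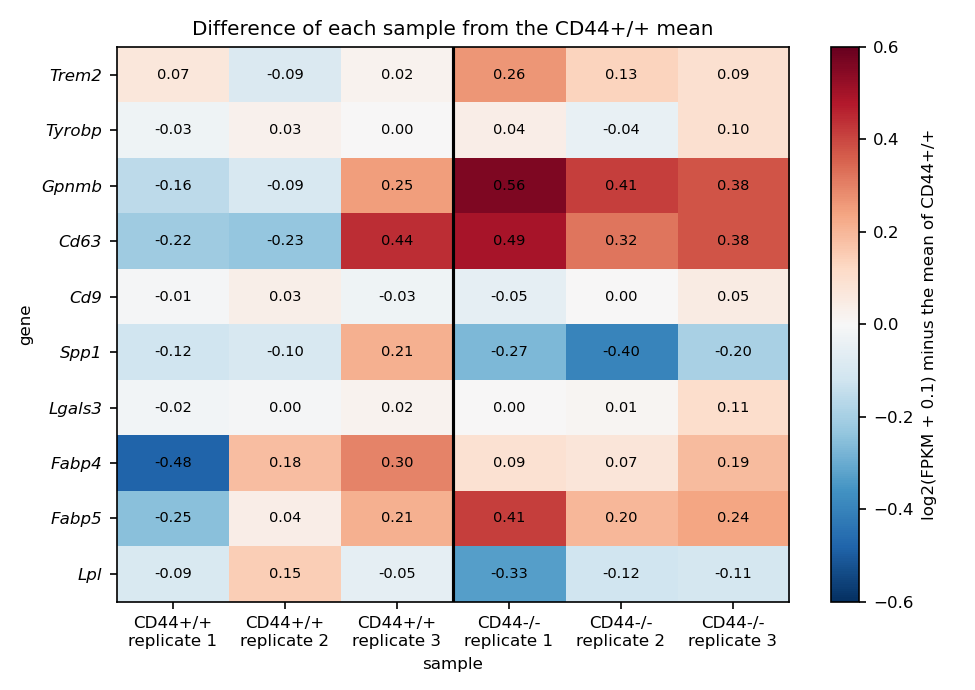
Difference of each sample (columns) from the mean of the CD44+/+ samples for each gene (rows), in units of log2(FPKM + 0.1); red is higher, blue is lower, and the black line separates the genotypes. Gpnmb, Cd63, Spp1, Fabp4 and Fabp5 are all highest in replicate 3 among the CD44+/+ samples, at 0.25, 0.44, 0.21, 0.30 and 0.21.

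Spread among the CD44+/+ samples differed widely between the 10 genes. The coefficient of variation of CD44+/+ samples was 28.4% for Cd63, 26.6% for Fabp4, 16.0% for Fabp5, 15.8% for Gpnmb and 13.2% for Spp1, and at most 9.17% for the other 5 genes. Among CD44-/- samples it was 8.44% or less for all 10 genes. Marco, a scavenger receptor gene and AM marker that is not among the 10 and was named after its values were seen, had 264, 349 and 532 FPKM in CD44+/+ replicates 1, 2 and 3 and 389 to 469 FPKM in the CD44-/- samples, so that it too was highest in CD44+/+ replicate 3 among the CD44+/+ samples. Of the 11 AM markers, 4 were highest and 5 lowest in that sample among the CD44+/+ samples, and 2 were neither. The part of such variation between CD44+/+ pools in the differences between genotypes was not tested.

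In limma's comparison across all genes, 0 of the 10 genes had an adjusted p under 0.05 with all samples, where 0.111% of the 10800 genes tested did (12 genes, 8 higher and 4 lower in CD44-/- AMs, and 6 and 5 after quantile normalization). With single samples left out, 6 to 36 genes did. At an unadjusted p under 0.05 there were 5 of the 10 genes, against 7.69% of all genes tested. No overlap between genotypes was seen for 4 of the 10 genes (Gpnmb, Trem2, Spp1 and Lpl), against 11.6% of all genes tested. Nothing is read from these counts, because the genes were listed with this comparison in view.

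**Figure D4:**
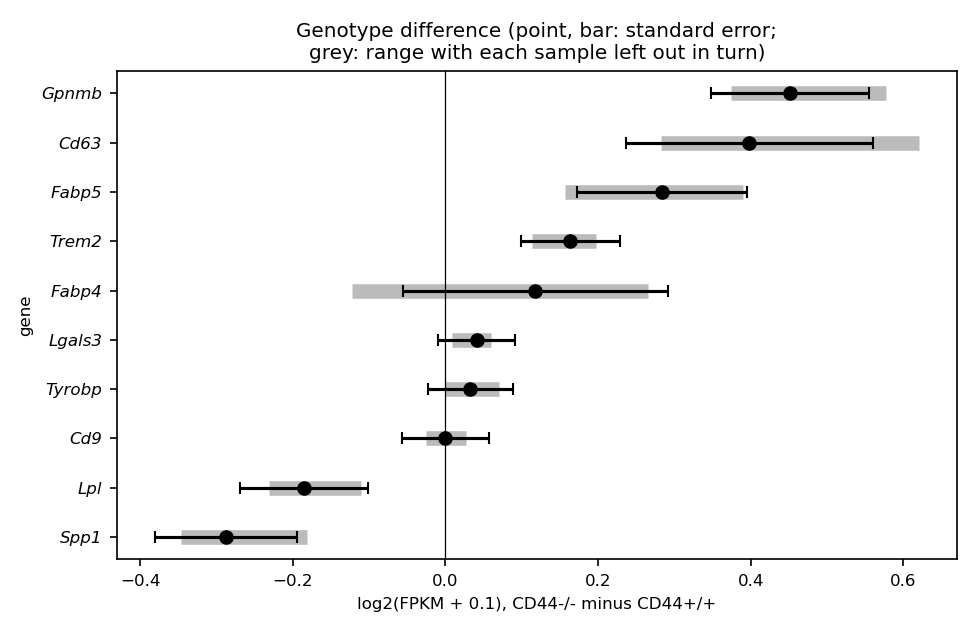
Genotype difference of each gene on log2(FPKM + 0.1), CD44-/- minus CD44+/+, with its standard error (black) and the range of the difference when each of the 6 samples was left out in turn (grey). Gpnmb lies highest at 0.45 and Spp1 lowest at -0.29, and the grey ranges of Fabp4, Tyrobp and Cd9 cross 0.

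Under the exact names of GENCODE, Cd63, Cd9 and Fabp5 each have a processed pseudogene (Cd63-ps, Cd9-ps and Fabp5l2) with which short reads could be shared, and Cd9 overlaps 2 transcripts of the opposite strand, Gm28809 over 3316 bases and Gm26728 over 368 bases. Spp1 overlaps Gm42793, a transcript of the same strand, over 1252 bases, and reads from the shared stretch cannot be assigned to one of them by strand. The library was stranded, but whether strand was used in computing FPKM is not given in the sources used here. Tyrobp lies 126 bases from Hcst, the gene for the related adaptor DAP10. Hcst had 32.3 to 42.5 FPKM in CD44+/+ and 33.2 to 34.8 FPKM in CD44-/- samples.

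The other genes of the programme and of its pathways were compared as 10 lists with 140 genes, of which 136 matched an identifier and 110 were tested. Apoe was the only one of the 110 genes with an adjusted p under 0.05, where 0.111% of all genes tested had one. At an unadjusted p under 0.05 there were 11 of the 110 genes (8 higher and 3 lower in CD44-/- AMs), against 7.69% of all genes. No overlap was seen for 18 of the 110 genes, against 11.6% of all genes. The median log2 difference of the 110 genes was 0.005, and that of all genes tested 0.01.

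The first list held 27 further genes of the lipid-associated macrophage (LAM) and the related disease-associated microglia (DAM) signatures, of which 25 were tested. Apoe, for the lipoprotein that carries cholesterol out of macrophages and is also bound by TREM2, had 43.9, 48.3 and 72.6 FPKM in the CD44+/+ samples, against 189, 178 and 144 FPKM in the CD44-/- samples. Apoe rose in CD44-/- AMs with a log2 difference of 1.66 (standard error 0.18) and an adjusted p of 0.0128, which became 0.0943 once replicate number was a block. Without CD44+/+ replicate 2 it was 0.0710, without CD44-/- replicate 2 it was 0.0958, while the lowest and highest adjusted p of all alternatives were 0.00164 and 0.147. As for Gpnmb, CD44+/+ replicate 3 was the CD44+/+ sample nearest to the CD44-/- samples. At an unadjusted p under 0.05 the list had 5 genes, 4 higher and 1 lower, and its median log2 difference was 0.03. Timp2, for an inhibitor of metalloproteinases, was named after its values were seen, with 33.5, 25.7 and 27.3 FPKM in CD44+/+ against 38.6, 42.5 and 40.5 FPKM in CD44-/- samples. Its adjusted p was 0.158, and it was under 0.05 without CD44+/+ replicate 1 (log2 difference 0.61, standard error 0.06). Pla2g7, for a phospholipase that cleaves oxidized phospholipids, had the largest negative difference, -0.85 (standard error 0.33, adjusted p = 0.575), with 2.85, 5.21 and 8.04 FPKM in CD44+/+ and 3.42, 2.53 and 2.25 FPKM in CD44-/- samples, which overlap. Without CD44+/+ replicate 3 its difference was -0.50, and without CD44+/+ replicate 1 it was -1.24. The most abundant genes of this list were Lyz2, for lysozyme, with 18700 to 22500 FPKM in CD44+/+ and 22700 FPKM (deposited to 3 digits) in each CD44-/- sample, and Ftl1, for the ferritin light chain, with a mean of 5038 FPKM. Cst7, which is typical of disease-associated microglia and was named after its values were seen, was at most 0.198 FPKM in any sample.

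Genes that act with TREM2 and DAP12 did not pass the test. Of 16 tested genes for signalling from DAP12 and for shedding of TREM2, 0 had an adjusted p and 0 an unadjusted p under 0.05 in limma's comparison, and log2 differences lay between -0.12 (Hcst) and 0.08 (Dok3, an adaptor that dampens such signals). With single samples left out, Hcst went from -0.21 (without CD44+/+ replicate 2) to -0.01 (without CD44+/+ replicate 1), and Dok3 from 0.05 (without CD44+/+ replicate 3) to 0.13 (without CD44+/+ replicate 1). Ptpn6, for the phosphatase SHP-1, was the most abundant of them with 215 FPKM, followed by Lyn with 147 FPKM. The kinase gene Syk had 138 ± 5.29 FPKM (SD, n = 3) in CD44+/+ AMs, against 135 ± 6.48 FPKM (SD, n = 3) without CD44; it was named after its values were seen. Of 10 tested genes for other receptors that couple to DAP12, 0 had an adjusted p or an unadjusted p under 0.05. Their differences went from -0.14 (Cd300lb and Sirpb1b) to 0.11, with the highest levels for Sirpb1a (55.3 FPKM) and Treml4 (35.2 FPKM). Cd300lb was at -0.06 without CD44+/+ replicate 3 and at -0.26 without CD44+/+ replicate 2. Sirpb1a and Sirpb1b are closely related, so their values are uncertain where reads could be split between them.

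Osteopontin binds integrins in addition to CD44, and GPNMB binds syndecan-4 and integrins. Of 6 tested genes for these partners, 0 had an adjusted p under 0.05 in limma's comparison and 1 an unadjusted p under 0.05, Itga4, with 25.5 ± 0.289 FPKM (SD, n = 3) in CD44+/+ AMs, against 28.9 ± 1.90 FPKM (SD, n = 3) without CD44 (log2 difference 0.18, standard error 0.06, adjusted p = 0.499). Itgb1 (181 FPKM) and Itgb5 (95.0 FPKM) were the most abundant, while Itgb3, named after its values were seen, was at most 0.099 FPKM and was not tested. Sdc4 was low, with 0.778 ± 0.221 FPKM (SD, n = 3) in CD44+/+ AMs, against 0.556 ± 0.157 FPKM (SD, n = 3) without CD44, a log2 difference of -0.42 (standard error 0.29, adjusted p = 0.856). It was -0.21 without CD44-/- replicate 2, -0.26 without CD44+/+ replicate 2 and -0.64 without CD44+/+ replicate 1.

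MiT/TFE factors, which switch on Gpnmb and other lysosomal genes, did not pass the test either. Of 9 tested genes for the factors and their regulators, 0 had an adjusted p under 0.05 in limma's comparison and 2 an unadjusted p under 0.05, both lower. Mitf had 16.4, 16.1 and 16.0 FPKM in CD44+/+ and 15.5, 13.7 and 14.3 FPKM in CD44-/- samples, without overlap (log2 difference -0.16, standard error 0.07, adjusted p = 0.619). Tfeb, named after its values were seen, had 38.4, 39.8 and 40.6 FPKM in CD44+/+ against 36.2, 34.9 and 37.8 FPKM in CD44-/- samples, also without overlap (adjusted p = 0.645). The most abundant were Rragc (103.5 FPKM), for a GTPase that holds these factors at the lysosome, and Tfec (90.4 FPKM), with a log2 difference of -0.14 (standard error 0.07, adjusted p = 0.749), or -0.08 without CD44-/- replicate 3. Whether the levels of these transcripts bear on that of Gpnmb was not tested.

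Relatives of the tetraspanin and galectin genes did not pass the test. None of 15 tested tetraspanins and partners had an adjusted or unadjusted p under 0.05 in limma's comparison, and their differences lay between -0.19 (Cd81) and 0.23 (Tspan4). Cd81 was at -0.0052 without CD44+/+ replicate 3 and at -0.34 without CD44+/+ replicate 1, and Tspan4 went from 0.0995 without CD44-/- replicate 2 to 0.37 without CD44-/- replicate 3. Cd53 was the most abundant of these with 235 FPKM. Cd81 had 94.8, 109 and 150 FPKM in CD44+/+ replicates 1, 2 and 3, highest in replicate 3 as for Cd63, and 106, 96.1 and 102 FPKM in CD44-/- samples. Among 7 tested galectins and ligands 0 had an adjusted or unadjusted p under 0.05. Lamp1 (678 FPKM), a lysosomal membrane glycoprotein, and Lgals1 (450.3 FPKM) were the most abundant, and the largest differences were those of Lgals4 at 0.52 (adjusted p = 0.787) and Lgals9 at 0.10 (adjusted p = 0.891). Lgals4 was at 0.25 without CD44+/+ replicate 3 and at 0.85 without CD44+/+ replicate 1, and Lgals9 was at 0.05 without CD44-/- replicate 3 and at 0.21 without CD44-/- replicate 1.

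Of the other fatty acid binding proteins only 4 genes were tested, 0 of which had an adjusted or unadjusted p under 0.05 in limma's comparison. Fabp1 was the most abundant of them, with 624 ± 69.0 FPKM (SD, n = 3) in CD44+/+ AMs, against 592 ± 95.5 FPKM (SD, n = 3) without CD44, which is above Fabp4 and Fabp5. Dbi, for the acyl-CoA binding protein, had 274, 299 and 297 FPKM in CD44+/+ against 261, 265 and 279 FPKM in CD44-/- samples, with a log2 difference of -0.11 (standard error 0.05, adjusted p = 0.695). Of 8 tested LPL partners and intracellular lipases, 0 had an adjusted p under 0.05 in limma's comparison and 1 an unadjusted p under 0.05. Sel1l, needed for LPL to leave the endoplasmic reticulum, had a log2 difference of 0.04 (standard error 0.07, adjusted p = 0.968). Mgll (90.8 FPKM), for monoglyceride lipase, and Angptl4 (80.3 FPKM), an inhibitor of LPL, were the most abundant.

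PPARG and C/EBP factors drive Fabp4 and Lpl, and LXR drives Apoe. Of 10 tested genes for these factors, 0 had an adjusted p under 0.05 in limma's comparison and 2 an unadjusted p under 0.05, both higher and both named after their values were seen. Nr1h3, for LXR alpha, had 32.2, 36.3 and 33.6 FPKM in CD44+/+ against 37.3, 40.5 and 41.4 FPKM in CD44-/- samples, without overlap (log2 difference 0.22, standard error 0.07, adjusted p = 0.415). Rxra, for the partner of PPARG and LXR, had 105.6, 101 and 102 FPKM in CD44+/+ against 116, 111 and 113 FPKM in CD44-/- samples, also without overlap (log2 difference 0.14, standard error 0.05, adjusted p = 0.484). Cebpb had 547, 176 and 239 FPKM in CD44+/+ replicates 1, 2 and 3 and 574, 240.0 and 287 FPKM in CD44-/- replicates 1, 2 and 3, so that replicate 1 was highest in both genotypes and the CD44-/- sample was the higher one of each number. Its log2 difference was 0.26, with a standard error of 0.43 and an adjusted p of 0.970, and with the replicate block the standard error was 0.07 and the adjusted p 0.352. Cebpd had a log2 difference of 0.33 (standard error 0.15, adjusted p = 0.658), or 0.18 without CD44+/+ replicate 2, and Cebpa was at 198 FPKM.

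**Figure D5:**
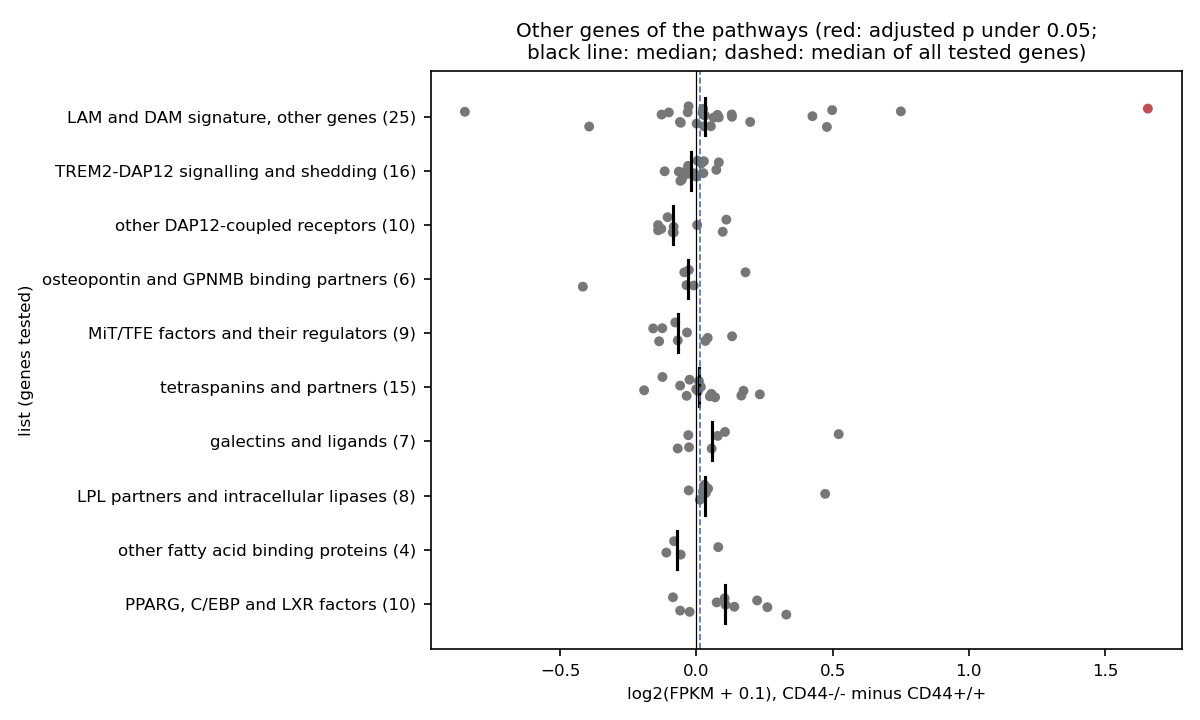
Genotype difference (log2(FPKM + 0.1), CD44-/- minus CD44+/+) of each tested gene in the 10 lists, with the number tested in brackets; black lines are list medians and the dashed line is the median of all genes tested, 0.01. Only Apoe, at 1.66 in the first list, has an adjusted p under 0.05 (red).

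To see which genes varied most like Gpnmb and Trem2, log2 values of the 7887 genes that averaged 5 FPKM or more were centred over the 6 samples and compared by the root mean square difference, in log2 units. Ffar2 (0.06), Irgc1 (0.07), Mreg (0.08), Plxnb2 (0.10) and Ccl22 (0.10) were the nearest to Gpnmb. Ffar2, for a receptor of short-chain fatty acids, had 16.5, 16.6 and 20.1 FPKM in CD44+/+ and 26.2, 25.1 and 22.0 FPKM in CD44-/- samples. Mreg, for melanoregulin, had 7.33, 8.15 and 10.5 FPKM in CD44+/+ and 12.3, 9.88 and 10.6 FPKM in CD44-/- samples, which overlap. In both, as in Gpnmb, CD44+/+ replicate 3 was the highest CD44+/+ sample, which comes with picking genes for their likeness to Gpnmb in these samples. Slc12a9, Ext2, Rnf135, Serinc5 and Phf8 were the nearest to Trem2, each with a difference of 0.03. These names describe the 6 samples, and the likeness was not tested.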

How the data were processed

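RNA from BAL cells of CD44+/+ and CD44-/- mice was sequenced in read pairs. The deposited values are FPKM per gene and sample, which the authors computed from reads aligned to mm10 (STAR and Cufflinks, per the submitters' processing notes). Group means, fold changes and p-values of Cuffdiff in the same table were not used. Its gene names and positions stand in another order than identifiers and values, so positions were looked up by name and set to a first base of 1. Depth is unknown, and 1 gene with a missing value was left out.

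For 10800 genes averaging 0.5 FPKM or more, log2(FPKM + 0.1) was compared in R 4.3.3 with limma 3.58.1 (trend in eBayes, two-sided tests, Benjamini-Hochberg adjustment over all genes tested, threshold 0.05), a procedure tested on simulated data. The p-values rest on the spread between pools of mice, with the variance of each gene moderated by eBayes toward a trend over all genes tested. The 10 genes and all lists were chosen with earlier results of these data known, and no list was tested as a set. Genes named from each list were those with an adjusted p under 0.05, the 2 with the largest difference and the 2 most abundant (others are marked as named after their values were seen), plus the 5 nearest to Gpnmb and to Trem2. One gene that this rule names is not reported here. The motifs were chosen after the RefSeq windows had been seen.

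Deviations of same-numbered samples from their group means correlated across genes at 0.212, 0.132 and 0.211 for replicates 1, 2 and 3. Correlations between samples of different numbers were not computed, so whether the numbers pair samples was not tested. A fit with a replicate block was run as an alternative. Other alternatives were other pseudocounts (1 and 0.01), other filters (1 FPKM, or none), scaling by median ratios or quantiles, eBayes robust or with no trend, and each sample left out.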

Additional observations from a re-analysis of the deposited data

How the results depend on the processing

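Over the 15 alternatives, the log2 differences of Gpnmb (0.37 to 0.58), Cd63 (0.28 to 0.62), Fabp5 (0.16 to 0.39), Trem2 (0.11 to 0.20), Lgals3 (0.008 to 0.06), Spp1 (-0.35 to -0.18) and Lpl (-0.23 to -0.11) kept their direction. Those of Fabp4 (-0.12 to 0.27), Tyrobp (-0.06 to 0.07) and Cd9 (-0.03 to 0.03) did not. The count of the 10 genes with an adjusted p under 0.05 in limma's comparison was 0 with all samples, where 0.111% of all genes tested had one. With single samples left out it was 0 to 2. The 2 were Gpnmb and Cd63 without CD44+/+ replicate 3, where 13 of 10800 genes tested (0.12%) had one. Nothing is read from these counts, because the genes were listed with this comparison known.

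The number of genes with an adjusted p under 0.05 was 12, and it was 7 with no filter, 9 with the replicate block and 6 to 36 when single samples were left out (36 without CD44+/+ replicate 1, 22 without CD44-/- replicate 1, 7 without CD44+/+ replicate 2 and 6 without CD44-/- replicate 2). Of the other pathway genes, 1 (Apoe) had one, and 0 with no filter, eBayes without trend, robust eBayes or the replicate block, and 0 to 2 without single samples (0 without CD44+/+ replicate 2 or CD44-/- replicate 2, and Apoe and Timp2 without CD44+/+ replicate 1). The log2 difference of Apoe stayed between 1.51 and 1.88. With single samples left out, differences changed sign for Sel1l, Fabp1 and Cebpb, all in fits without the replicate block. Sel1l was at -0.0046 without CD44-/- replicate 1 (range to 0.0901). Fabp1 was at 0.0032 without CD44+/+ replicate 3 and at 0.0085 without CD44-/- replicate 2 (range from -0.21). Cebpb was at -0.09 without CD44+/+ replicate 2 and at -0.12 without CD44-/- replicate 1 (range to 0.73). Leaving out 1 sample also leaves the other sample of its number unmatched. The causes were not tested. Of the 12 genes, 4 were not under 0.05 with the replicate block (Mfge8, Arl4c, Oxct1 and Apoe, adjusted p 0.102, 0.103, 0.0943 and 0.0943), and Rpph1 was (0.0118), all but Apoe being named after their values were seen. The replicate block changed no other call among the genes described here.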
